A study of Mus musculus with 6 samples.

Results

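Receptor genes that mark how far a neutrophil has matured were measured in RNA from endomucin-selected bone endothelial cells (BECs) of 12-week-old mice. The 9 genes are Cd101, Cxcr2, Cxcr4, Csf3r, Itgb2l, Cd177, Ly6g, Fpr1 and Fpr2, out of 37991 genes in the table of counts, and all 9 had a row and passed the filter on low counts. They are known maturation receptors and were chosen by an earlier look at these counts, selected on the higher CPM of Cd101 in males, so their values in males against females are a description and not a test. The 6 libraries came from tibiae of c57/Bl6 mice, 3 from females and 3 from males, and sex was the only labelled difference. The methods of the study name C57BL/6J mice and femurs beside tibiae. The cells were selected as BECs with an antibody to endomucin, by sorting according to the labels and with coated magnetic beads according to the methods of the study, and each set of libraries held the samples with the best RNA quality. The labels do not say that each library came from a separate animal, so p-values measure only the spread between these libraries, which may be technical.

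Neutrophils are made in the bone marrow and pass from granule-forming precursors to mature cells that leave for the blood. CXCR4, the receptor of the stromal chemokine CXCL12, holds them in the marrow, while CXCR2, the receptor of the CXCL1 family, favours their release, and the G-CSF receptor encoded by Csf3r drives their production and mobilisation. CD101, Ly6G and the formyl peptide receptors are surface proteins that mark the later stages.

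The libraries held between 47678806 and 58325745 counts. At this depth a receptor gene had between 997 and 25467 counts in a library, so that counting alone gave an error of between 0.627% and 3.17%, while the CV within a sex lay between 2.45% and 23.6%. Together the 9 genes held between 0.109% and 0.186% of the counts of a library, with all males above all females. Levels are given as CPM, the count scaled to library size after TMM normalization, in which 3 counts equal between 0.0477 and 0.0639 CPM. Intervals of counting error do not cover amplification.

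The selected cell type was checked by its markers. All 13 endothelial markers were detected in every library, with a summed level between 399 and 541 CPM in females and between 244 and 346 CPM in males. The sum of 6 abundant neutrophil transcripts (S100a8, S100a9, Ngp, Ltf, Camp and Lcn2) lay between 17326 and 21179 CPM in females and between 29523 and 40730 CPM in males. The 6 neutrophil transcripts therefore had far more counts in sum than the 13 endothelial markers in each of the 6 libraries, and their sum was higher in males, as were the receptors. In RNA from bulk samples, a larger number of neutrophils cannot be told apart from more RNA per neutrophil.

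The receptor genes lie on 7 chromosomes of GRCm39 and include 1 close pair. Cd101 (ENSMUSG00000086564) lies on chromosome 3 from 100899506 to 100936872, Cxcr2 (ENSMUSG00000026180) on chromosome 1 from 74193150 to 74200405, Cxcr4 (ENSMUSG00000045382) on chromosome 1 from 128515936 to 128520044 and Csf3r (ENSMUSG00000028859) on chromosome 4 from 125918262 to 125938236. Itgb2l lies on chromosome 16 from 96223488 to 96244841, Cd177 on chromosome 7 from 24443408 to 24459747 and Ly6g on chromosome 15 from 75027089 to 75030982. Fpr1, from 18096733 to 18104202, and Fpr2, from 18108070 to 18114215, are neighbours on chromosome 17. Itgb2l overlaps Igsf5 on the opposite strand and Fpr2 overlaps Fpr3 on the same strand, and Cd177, Ly6g and the formyl peptide receptors belong to families of similar genes, so their counts could include reads of a relative.

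The start regions of the 3 genes with the largest fold change, Csf3r, Cd101 and Cxcr2, and of the gene with the smallest, Cxcr4, are shown for comparison of their motifs. Each is 300 bases of RefSeq on GRCm38.p6, with the annotated start 50 bases before its end. Capitals mark GAGGAA, a core of sites for the myeloid factor PU.1, TTGCNNAA, a form of the site of C/EBP factors, and TGTGGT, a core of RUNX sites, on either strand.
Cd101, chr3:101029504-101029803 (- strand): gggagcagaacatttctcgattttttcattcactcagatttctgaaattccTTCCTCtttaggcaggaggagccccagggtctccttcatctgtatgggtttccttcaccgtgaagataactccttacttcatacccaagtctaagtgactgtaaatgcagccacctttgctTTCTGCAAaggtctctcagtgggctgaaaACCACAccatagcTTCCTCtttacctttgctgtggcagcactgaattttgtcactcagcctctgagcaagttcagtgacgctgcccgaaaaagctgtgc
Cxcr2, chr1:74153744-74154043 (+ strand): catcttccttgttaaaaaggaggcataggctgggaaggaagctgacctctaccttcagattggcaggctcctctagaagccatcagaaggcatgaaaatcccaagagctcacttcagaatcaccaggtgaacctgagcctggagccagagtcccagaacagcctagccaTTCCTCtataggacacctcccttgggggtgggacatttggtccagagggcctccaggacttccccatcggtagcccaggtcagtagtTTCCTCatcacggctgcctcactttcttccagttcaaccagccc
Csf3r, chr4:126024409-126024708 (+ strand): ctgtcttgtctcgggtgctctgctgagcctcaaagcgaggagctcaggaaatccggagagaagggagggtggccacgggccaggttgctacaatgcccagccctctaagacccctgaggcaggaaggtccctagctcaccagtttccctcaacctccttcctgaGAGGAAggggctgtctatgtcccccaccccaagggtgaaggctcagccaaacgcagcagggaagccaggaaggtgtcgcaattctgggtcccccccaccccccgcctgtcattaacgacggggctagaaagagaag
Cxcr4, chr1:128592250-128592549 (- strand): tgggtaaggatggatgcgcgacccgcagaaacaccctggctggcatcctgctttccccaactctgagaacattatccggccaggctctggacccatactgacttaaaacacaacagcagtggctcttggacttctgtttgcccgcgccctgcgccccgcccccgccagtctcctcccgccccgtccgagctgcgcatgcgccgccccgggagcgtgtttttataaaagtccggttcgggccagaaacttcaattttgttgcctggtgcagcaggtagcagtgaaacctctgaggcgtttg

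GAGGAA was present in the start regions of 7 of the 9 genes, and absent from those of Cxcr4 and Fpr1. Of all 32851 start regions of this length, 28.3% held it. TTGCNNAA was found for 2 of the 9, Cd101 and Ly6g, and in 10.8% of all regions. TGTGGT was found for 2 of the 9, Cd101 and Fpr2, and in 16.8%. Cd101 alone of the 9 held all 3 motifs. Ly6g had 2 start regions, and the second did not hold TTGCNNAA. Counted by region, GAGGAA was in 8 of 10, TTGCNNAA in 2 and TGTGGT in 2. These are matches of letters within 1 window and were not tested as binding sites.

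Cd101 encodes an immunoglobulin-like surface protein of mature neutrophils. It had 18.7, 20.2 and 21.2 CPM in female replicates 1, 2 and 3 and 37.7, 35.9 and 36.6 CPM in male replicates 1, 2 and 3. The sexes did not overlap, and the lowest male library was 1.69 times the highest female library, the widest gap of the 9 genes. The means were 20.0 ± 1.26 CPM (SD, n = 3) in females and 36.7 ± 0.899 CPM (SD, n = 3) in males. The log2 fold change (log2FC) of males over females from edgeR was 0.87 ± 0.116 (SE).

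Cxcr2 had 157, 176 and 159.8 CPM in the female replicates and 255, 324 and 310.1 CPM in the male replicates. Male replicate 1 was the lowest of the males and still 1.45 times the highest female. The log2FC was 0.85 ± 0.133 (SE). Cxcr4, its counterpart in marrow retention, had 151, 148 and 169 CPM in females and 193, 182 and 183 CPM in males. Its sexes did not overlap either, but the gap was small, with the lowest male at 1.08 times the highest female and a log2FC of 0.26 ± 0.113 (SE).

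Csf3r had 183, 162 and 139 CPM in females and 306, 412 and 262 CPM in males. It varied most among males, with a CV of 23.6%, and it had the largest log2FC of the 9 genes, at 1.02 ± 0.180 (SE). Male replicate 2 was the highest library for Csf3r, and also for Cxcr2, Ly6g, Fpr2 and Itgb2l.

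Ly6g, whose product is the antigen used to identify mouse neutrophils, had 39.1, 46.9 and 41.4 CPM in females and 66.7, 87.3 and 71.1 CPM in males. No female library reached the males, and the log2FC was 0.82 ± 0.134 (SE). Itgb2l encodes an integrin beta chain related to that of the leukocyte integrins. It had 69.3, 77.3 and 79.9 CPM in females and 119.8, 124 and 102 CPM in males, a log2FC of 0.61 ± 0.121 (SE). Cd177 encodes a membrane-anchored glycoprotein of neutrophils that binds PECAM1. It had 289, 365 and 430.5 CPM in females and 483, 474 and 448 CPM in males. For Cd177 the sexes nearly met, the lowest male being 1.04 times the highest female, and the log2FC was 0.37 ± 0.157 (SE), or 0.24 without female replicate 1. Cd177 was the most variable of the 9 genes in females, with a CV of 19.6%, and among the least variable in males, with a CV of 3.94%.

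The formyl peptide receptors sense bacterial peptides and guide neutrophils to sites of infection. Fpr1 had 41.2, 48.9 and 46.3 CPM in females and 53.6, 59.7 and 61.3 CPM in males, with a log2FC of 0.36 ± 0.117 (SE). Fpr2 had 77.0, 95.7 and 76.1 CPM in females and 119 (replicate 1), 158 and 132 CPM in males, with a log2FC of 0.72 ± 0.144 (SE). Both were higher in every male than in every female, Fpr2 by the wider margin.

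**Figure D1:**
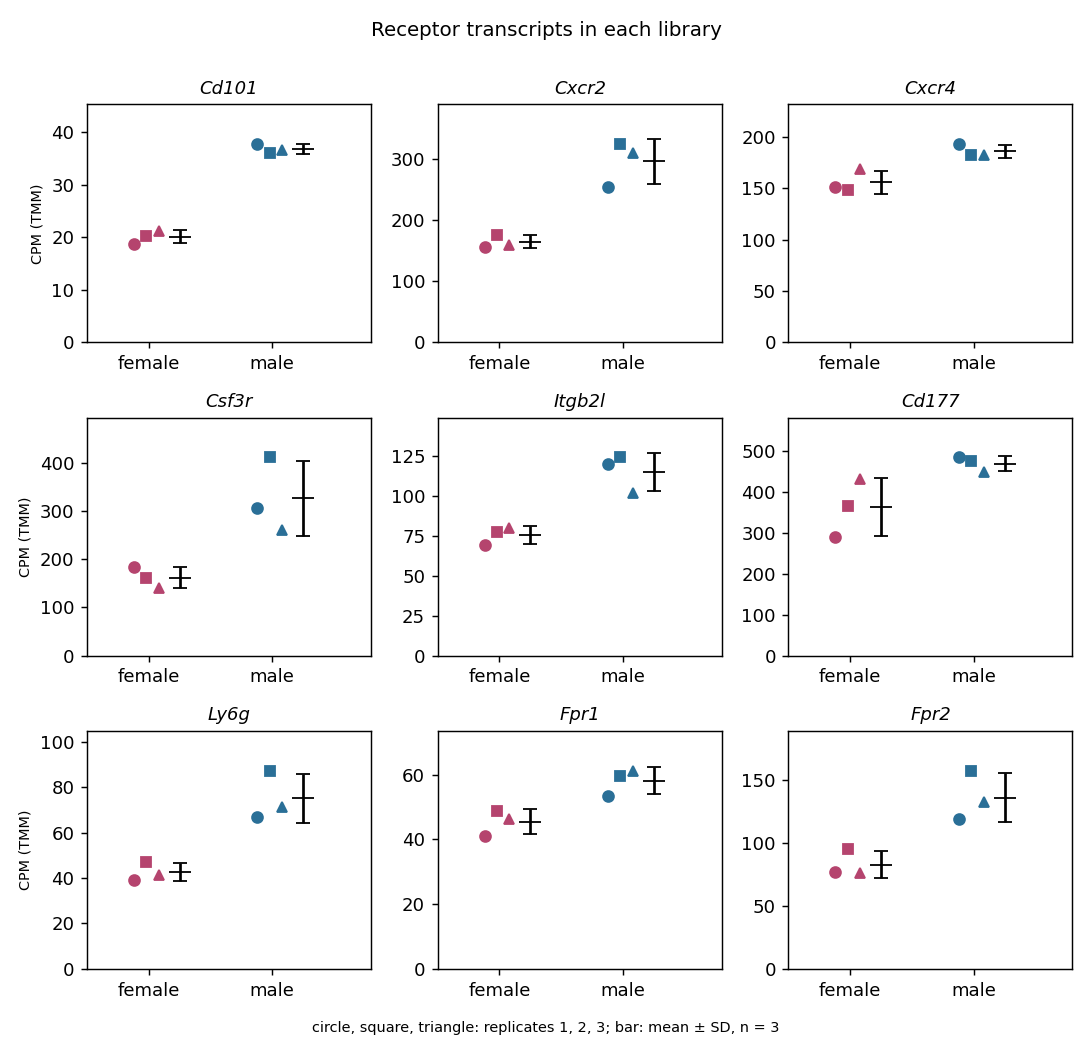
Level of each of the 9 receptor genes in CPM after TMM normalization (vertical axes from 0) in the 3 female and 3 male libraries, 1 symbol per library, with the mean and SD beside them. In every panel the male symbols lie above the female ones, with the widest gap for Cd101 (1.69 times) and the narrowest for Cd177 (1.04 times).

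Every male library was thus above every female library for 9 of 9 receptor genes, while this held for 7.25% of the 19480 genes tested. The median log2FC of the 9 was 0.72, beside -0.00125 over all genes tested. EdgeR called 1 of the 9 at an adjusted p under 0.05, Cd101 (adjusted p = 0.0416), where 0.0411% of all genes were called in either direction and 0.0257% higher in males. All 9 had an unadjusted p under 0.05 with higher levels in males, as had 5.03% of all genes. Because the male and female values were known when the genes were listed, nothing is read from these counts. Cd101 was no longer called without female replicate 1 (adjusted p from edgeR 0.152), 2 (0.130) or 3 (0.143), or without male replicate 1 (0.0915) or 2 (0.237). Without male replicate 3, edgeR called 5 of the 9 and 0.331% of all genes higher in males. DESeq2's Wald test on all libraries called 6 of the 9, Cd101, Cxcr2, Csf3r, Itgb2l, Ly6g and Fpr2, and 1.27% of all genes higher in males. With the replicate number as a block, edgeR called the same 6 receptors and 1.13% of all genes higher in males.

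**Figure D2:**
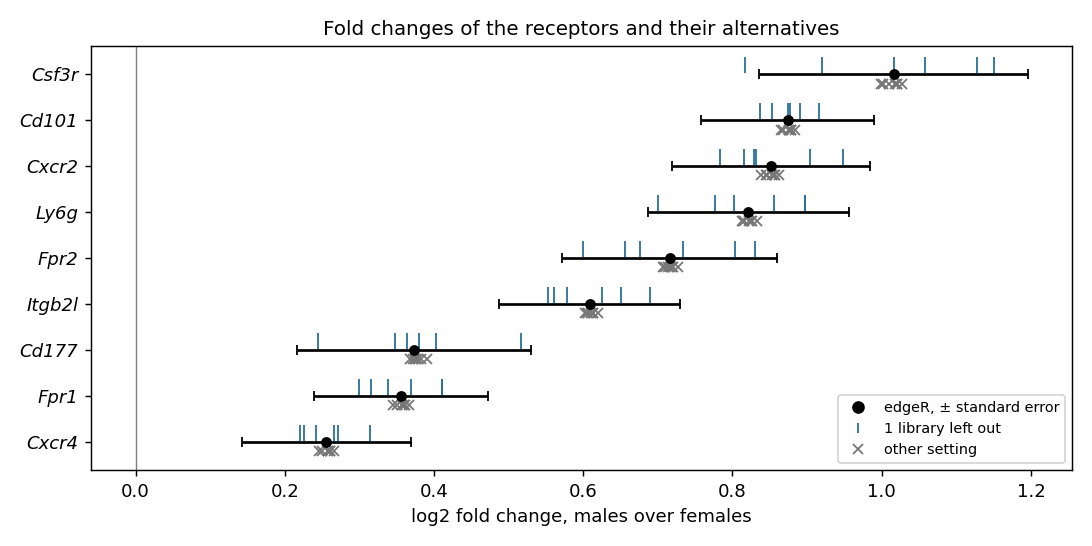
Log2FC of males over females (horizontal axis) for the 9 receptor genes. Black points with bars are edgeR's estimates ± standard error, blue ticks the estimates with 1 library left out and grey crosses those under the other settings. All values are above 0, from 0.22 for Cxcr4 with 1 library left out to 1.15 for Csf3r with 1 library left out.

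The 9 genes were ranked by level per length, as CPM per kilobase of exon in the GRCm39 annotation. In females Cd177 had the highest level of the 9, with 126 ± 24.7 CPM per kilobase (SD, n = 3), followed by Cxcr4 with 85.6 ± 6.07 (SD, n = 3), Fpr2 with 63.2 ± 8.42 (SD, n = 3), Cxcr2 with 53.9 ± 3.44 (SD, n = 3), Ly6g with 44.1 ± 4.13 (SD, n = 3), Fpr1 with 34.3 ± 2.96 (SD, n = 3), Csf3r with 31.6 ± 4.30 (SD, n = 3) and Itgb2l with 17.4 ± 1.27 (SD, n = 3). Cd101 was lowest, with 4.29 ± 0.269 CPM per kilobase (SD, n = 3). Of these neighbours, Fpr1 and Csf3r overlapped between libraries, and the others did not. Fpr2 and Cxcr2 nearly met, with the lowest Fpr2 library at 57.97 and the highest Cxcr2 library at 57.82 CPM per kilobase. Their order in females is thus not resolved. In males Cd177 was again highest, with 164 ± 6.45 CPM per kilobase (SD, n = 3), and Cd101 lowest, with 7.87 ± 0.193 (SD, n = 3). Between them the order was Fpr2, Cxcr4, Cxcr2, Ly6g, Csf3r, Fpr1 and Itgb2l. From Fpr2 to Csf3r each male level overlapped the next, so that this stretch of the order is not resolved by 3 libraries.

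Ratios of CPM between receptors were chosen after the values had been seen and are given as a description only. Cxcr2 over Cxcr4 was 1.04, 1.19 and 0.948 in females against 1.32, 1.78 and 1.69 in males. The mean of Cd101 over Cxcr4 in females was 0.129 ± 0.00642, against 0.197 ± 0.00231 (SD, n = 3 each). For Cd101 over Cd177 it was 0.0565 ± 0.00780 against 0.0785 ± 0.00293 (SD, n = 3 each). For these 3 ratios, and for Fpr2 over Fpr1 with 1.82 ± 0.162 against 2.34 ± 0.262 (SD, n = 3 each), the sexes did not overlap. Cd101 over Cxcr2 did overlap, with 0.122 ± 0.00947 against 0.126 ± 0.0198 (SD, n = 3 each).

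Each receptor was then set against the 6 abundant neutrophil transcripts of the same library. Their sum was 1.81 times as high in males as in females. Relative to 1000 CPM of these transcripts, Cd101 had 1.08, 0.952 and 1.06 CPM in females and 1.28, 0.882 and 1.01 CPM in males. These ranges overlapped, and the log2 ratio of the male to the female mean was 0.04. Cxcr2, with 9.03, 8.32 and 7.95 in females and 8.62, 7.96 and 8.60 in males, overlapped in the same way, with a log2 ratio of -0.01. The log2 ratios of Ly6g (-0.04), Csf3r (0.14), Fpr2 (-0.14) and Itgb2l (-0.23) also came from overlapping groups. With 1 library left out, the log2 ratio on this scale lay between -0.12 (without male replicate 1) and 0.15 (without male replicate 2) for Cd101, between 0.022 (without female replicate 3) and 0.34 (without female replicate 1) for Csf3r, and between -0.40 (without male replicate 1) and -0.13 (without male replicate 3) for Itgb2l. That of Cxcr2 (-0.048 to 0.045) rose above 0 without female replicate 1 or male replicate 2, and that of Ly6g (-0.082 to 0.016) without male replicate 3. That of Fpr2 lay between -0.22 (without female replicate 3) and -0.095 (without female replicate 2).

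A further 3 receptors were lower in every male than in every female on this scale. Cxcr4 had 8.71, 6.998 and 8.39 CPM per 1000 CPM of the neutrophil transcripts in females and 6.54, 4.47 and 5.07 in males, a log2 ratio of -0.58. Fpr1 had 2.38, 2.31 and 2.30 in females and 1.82, 1.47 and 1.70 in males, a log2 ratio of -0.49. Cd177 had 16.7, 17.2 and 21.4 in females and 16.4, 11.6 and 12.4 in males, a log2 ratio of -0.45. The scale rests largely on S100a8 and S100a9. With these left out, the log2 ratios moved up, to 0.43 for Csf3r, 0.32 for Cd101, 0.29 for Cxcr2 and 0.26 for Ly6g. Those of Fpr2 (0.16) and Itgb2l (0.051) changed sign, while those of Cxcr4 (-0.31), Fpr1 (-0.20) and Cd177 (-0.17) stayed below 0. On this scale every male was above every female for Cd101, with 3.09, 2.61 and 2.84 CPM per 1000 CPM in females and 3.71, 3.36 and 3.56 in males, and for Ly6g, while the sexes overlapped for Cd177. With 21 granule genes as the scale, every male was above every female for Cd101, Cxcr2 and Ly6g, every male was below for Fpr1, and the sexes overlapped for Cxcr4 and Cd177. Whether the sexes overlapped for Cd101 thus depended on the scale.

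**Figure D3:**
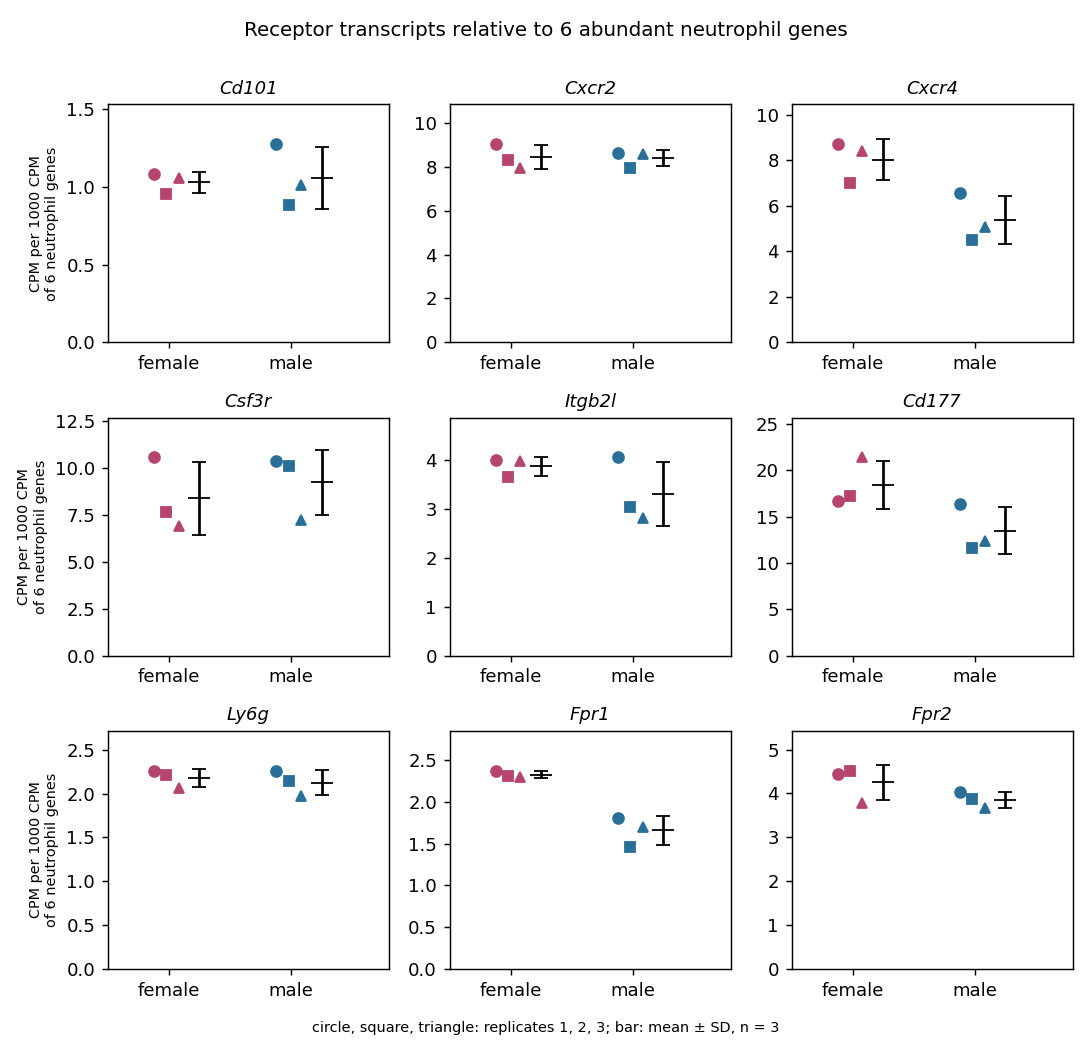
Level of each receptor gene per 1000 CPM of 6 abundant neutrophil genes (vertical axes from 0) in the 3 female and 3 male libraries, with mean and SD. The sexes overlap for 6 genes, Cd101 and Cxcr2 among them, and the male symbols lie below the female ones for Cxcr4, Fpr1 and Cd177.

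Across the 6 libraries the 9 genes followed each other, with Pearson's r of log2 CPM between 0.58 and 0.99 over the 36 pairs (median 0.90), which the shared difference between the sexes raises. Of deviations from the mean of each sex, r lay between -0.65 and 0.96 with a median of 0.30, and 24 of the 36 pairs were above 0. On these deviations Ly6g and Fpr2 were most alike (0.96), as were Cd101 and Cd177 (0.94), while Cd101 and Csf3r (-0.63) and Cxcr4 and Fpr2 (-0.65) went opposite ways. These are descriptions over 6 libraries, and what the receptors share within a library was not tested.

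Among 12249 other genes with a mean of at least 5 CPM, those with the pattern most like Cd101 over the 6 libraries were Dhrs9 (r = 0.994), Mmp8 (0.986), Dusp6 (0.985), Rnf13 (0.984) and the Y-linked Eif2s3y (0.980). Mmp8 encodes the neutrophil collagenase of the granules. On deviations from the sex means the r with Cd101 was 0.64 for Dhrs9, 0.54 for Dusp6, 0.50 for Mmp8, 0.29 for Rnf13 and -0.24 for Eif2s3y, whose level is set by the presence of a Y chromosome. For Cxcr4 the nearest genes were Mtmr12 (0.972), Rin2 (0.970), Lin9 (0.967), Stk26 (0.966) and Niban1 (0.965), none of them a gene of the neutrophil lists used here. On deviations from the sex means their r with Cxcr4 lay between 0.82 (Stk26) and 0.93 (Lin9).

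The ligands of the receptors were measured in the same libraries. Cxcl12, the CXCR4 ligand of stromal cells and endothelium, had 2214, 1090.04 and 2350 CPM in females and 1352, 928 and 1924 CPM in males. Its sexes overlapped, and its log2FC of -0.43 ± 0.320 (SE, edgeR adjusted p = 0.708) did not pass the test. It lay between -0.73 (without male replicate 3) and -0.20 (without male replicate 2) with 1 library left out, and replicate 2 was the lowest library for Cxcl12 in both sexes. Anxa1, whose protein annexin A1 acts on FPR2 and is itself abundant in neutrophils, had 481, 555 and 530.03 CPM in females and 769.7, 988 and 839 CPM in males, a log2FC of 0.73 ± 0.146 (SE, edgeR adjusted p = 0.108). Mif, which can also bind CXCR4, had a log2FC of -0.10 (edgeR adjusted p = 0.839), and Pecam1, the partner of CD177, -0.23 (edgeR adjusted p = 0.614). With 1 library left out, Mif lay between -0.20 and -0.028, and Pecam1 between -0.35 and -0.14.

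The CXCL ligands of CXCR2 listed here, Cxcl1, Cxcl2, Cxcl3 and Cxcl5, had few counts. Cxcl2, with between 22 and 100 counts in a library, had between 0.416 and 1.19 CPM in females and between 1.03 and 2.03 CPM in males, a log2FC of 0.78 (edgeR adjusted p = 0.614), which was 0.46 without female replicate 2 and 0.47 without male replicate 2. Cxcl5 reached at most 0.873 CPM, with a log2FC of -0.33 (edgeR adjusted p = 0.937). Cxcl1, Cxcl3 and Csf3, the gene of G-CSF, did not pass the filter and reached at most 0.0946, 0.0759 and 0.111 CPM. At an adjusted p under 0.05, edgeR called 0 of the 6 ligands tested, with 1 higher in males at an unadjusted p under 0.05 (5.03% of all genes), Anxa1, which was also the ligand called by DESeq2 (1.27%).

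Of 25 other surface proteins of neutrophils tested, edgeR called 0 after adjustment. Before adjustment 13 were higher in males at p under 0.05 (5.03% of all genes tested) and 1 was lower (4.76%), Tlr4, the endotoxin receptor. DESeq2 called 10 of them, all higher in males (1.27%). For 17 of the 25 every male was above every female (7.25% of all genes tested), for 1 every male was below every female (7.29%), and their median log2FC was 0.35. Clec4e, a lectin receptor for mycobacterial glycolipid, had 17.4, 17.1 and 15.6 CPM in females and 26.8, 44.6 and 31.4 CPM in males, a log2FC of 1.04 (edgeR adjusted p = 0.0711). Its neighbour in function Clec4d had a log2FC of 0.97 and Ceacam10 one of 0.95, each with an adjusted p of 0.0547 in edgeR.

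The signalling partners stood closer to 0, with a median log2FC of 0.10 over 16 genes. EdgeR called 0 of the 16, with 5 at an unadjusted p under 0.05, all higher in males (5.03% of all genes), and DESeq2 called 1 (1.27%). Socs3, the feedback inhibitor of G-CSF receptor signalling, had 10.1, 8.48 and 9.65 CPM in females and 15.6, 20.5 and 14.9 CPM in males, a log2FC of 0.85 (edgeR adjusted p = 0.115). Itgam, the alpha chain of the main neutrophil integrin, had a log2FC of 0.47 (edgeR adjusted p = 0.305) and Rgs18, a regulator of G-protein signalling, one of 0.40 (edgeR adjusted p = 0.383).

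The granule genes, which are transcribed in sequence as neutrophils mature, were set out by stage. The alarmins and stefins are given beside them and are not a granule stage. The 6 genes of the primary granule list had a median log2FC of 0.18, the 8 of the secondary granule list 0.34, the 7 of the tertiary granule list 0.61 and the 7 alarmins and stefins 1.02. EdgeR called 0 genes of these 4 lists at an adjusted p under 0.05, with 1, 3, 6 and 7 at an unadjusted p under 0.05 and higher in males (5.03% of all genes), and 1 tertiary granule gene, Slc11a1, lower (4.76%). DESeq2 called 1, 2, 5 and 7 of them, all higher in males (1.27%). The difference between the lists was not tested. Mpo, the myeloperoxidase of primary granules, had 179, 208 and 440.4 CPM in females and 137, 173 and 234 CPM in males, so that the sexes overlapped (log2FC -0.61, adjusted p = 0.606, edgeR). Without female replicate 3, the highest library for Mpo, its log2FC was -0.095. Ms4a3 of the same list had a log2FC of 0.27 (edgeR adjusted p = 0.803), from 0.047 without male replicate 3 to 0.54 without male replicate 1. Igsf6, at 0.53 (edgeR adjusted p = 0.200), is a surface protein and not a granule enzyme, and it was the call of DESeq2 in this list.

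Every male was above every female for 1 of 6 genes of the primary granule list, Igsf6, 4 of 8 secondary granule genes, 5 of 7 tertiary granule genes and 7 of 7 alarmins and stefins, as for 7.25% of all genes tested, and below for 1 tertiary granule gene (7.29%). Olfm4 and Cybb of the secondary granule list, named after their values were seen, overlapped between the sexes, with log2FC values of -0.35 and 0.01. Camp, the cathelicidin of secondary granules, had 1433, 1721 and 1549 CPM in females and 2427, 2966 and 3217 CPM in males, a log2FC of 0.87 (edgeR adjusted p = 0.0932). Lcn2 had a log2FC of 0.63 (edgeR adjusted p = 0.221), Ngp one of 0.45 (edgeR adjusted p = 0.391) and Ltf one of 0.32 (edgeR adjusted p = 0.578), or 0.20 without female replicate 1. Retnlg, a secreted product of mature neutrophils, had 601, 785 and 664 CPM in females and 1184, 1545 and 1403 CPM in males, a log2FC of 1.01 (edgeR adjusted p = 0.0603). Mmp8 had a log2FC of 0.70 (edgeR adjusted p = 0.0701) and Adam8 one of 0.74 (edgeR adjusted p = 0.133). S100a8 and S100a9, the alarmins that form calprotectin, had log2FC values of 1.06 and 0.97 (adjusted p = 0.108 and 0.115, edgeR), Stfa1 one of 1.36 (edgeR adjusted p = 0.175) and Stfa2l1 one of 1.02 (edgeR adjusted p = 0.0547).

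**Figure D4:**
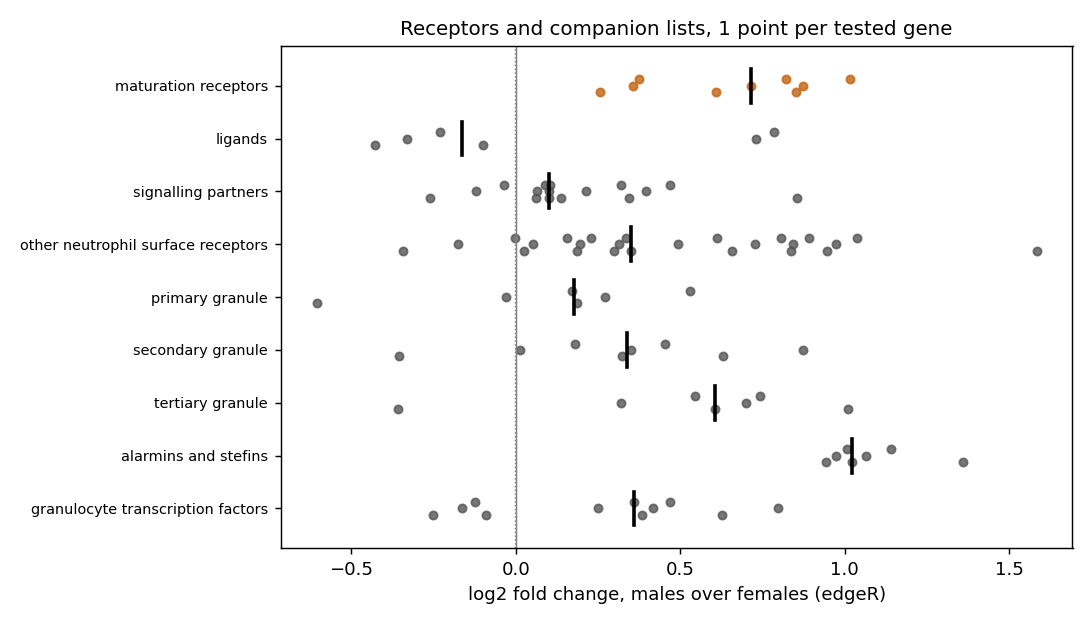
Log2FC of males over females (horizontal axis) for each tested gene of the 9 maturation receptors (orange) and of 8 companion lists (grey), with the median of each list as a black bar. The median is 0.72 for the receptors, 0.18 for the primary granule list and 1.02 for the alarmins and stefins, beside -0.00125 over all genes tested.

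Of 11 granulocyte transcription factors, edgeR called 0 at an adjusted p under 0.05, with 6 at an unadjusted p under 0.05, all higher in males (5.03% of all genes), and DESeq2 called 1 (1.27%), Cebpd. Cebpd had 38.3, 55.3 and 46.2 CPM in females and 66.7, 92.1 and 84.0 CPM in males, a log2FC of 0.80 (edgeR adjusted p = 0.115). Junb had a log2FC of 0.63 (edgeR adjusted p = 0.336), or 0.33 without male replicate 2, and Gfi1, a repressor needed for granulocyte formation, one of 0.47 (edgeR adjusted p = 0.415).

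Markers of other cells, some of which can carry these receptors, were compared between the sexes. Cxcr4 is also a receptor of B cells, whose 7 markers summed to between 2795 and 3206 CPM in females and between 2812 and 3242 CPM in males, with overlap. Monocytes carry formyl peptide receptors too. The sum of their 6 markers also overlapped, at 631 to 719 CPM in females and 632 to 712 CPM in males. Single markers differed, with every male above every female for 1 (7.25% of all genes tested) and below for 2 (7.29%). The sum of macrophage markers was lower in all 3 males, between 2986 and 4069 CPM against 4594 to 4801 CPM, as was that of the endothelial markers. Every male was below every female for 5 of 7 macrophage and 5 of 13 endothelial markers, as for 7.29% of all genes tested. The sum of eosinophil and basophil markers was lower in males, at 232 to 325 CPM against 339.8 to 380.4 CPM. Of the 8 genes, 4 were lower and 4 higher in males. Every male was below every female for 2 of them (7.29% of all genes tested) and above for 2 (7.25%). Summed markers of T and NK cells overlapped, at 78.6 to 90.8 CPM in females and 68.2 to 82.3 CPM in males. The markers of stem and progenitor cells lay between 133 and 159 CPM in females and between 122 and 128 CPM in males, and those of stromal cells, a list that includes Cxcl12, overlapped. The sum of erythroid markers was higher in males, at 18258 to 26760 CPM against 11952 to 17129 CPM, and every male was above every female for 4 of the 7 genes (7.25% of all genes tested). None of the markers in the table was at 0 counts in any library. The part of these cells in the receptor values was not tested.

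**Figure D5:**
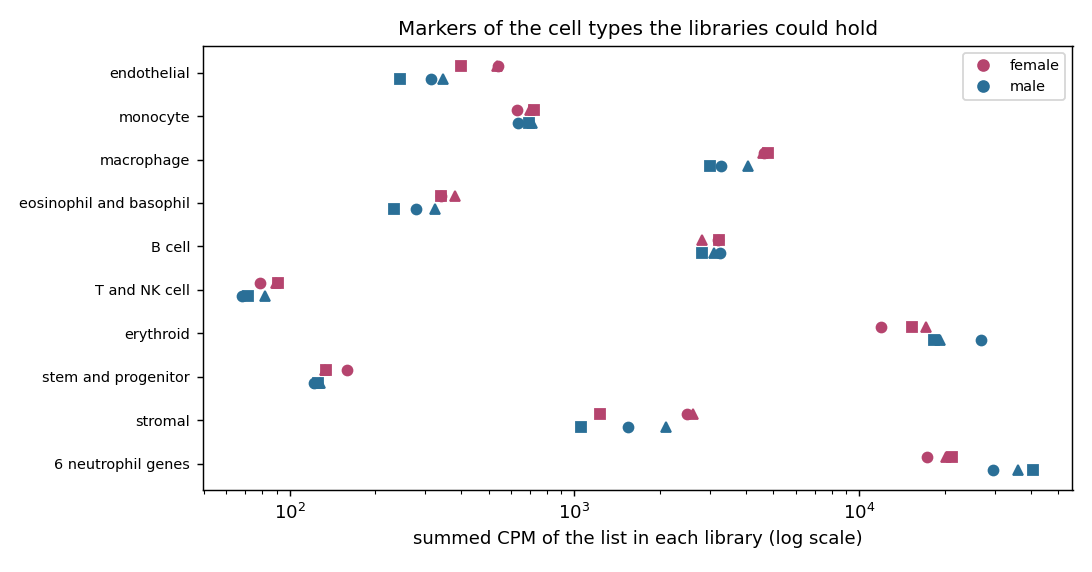
Summed CPM of marker lists (horizontal axis, log scale) in each library, 1 symbol per library, females in red and males in blue. The 6 neutrophil genes are higher in males (29523 to 40730 CPM) than in females (17326 to 21179 CPM). The sums of the endothelial and macrophage lists are lower in males, and those of the B cell and monocyte lists overlap.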

How the data were processed

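RNA was measured in 6 libraries of selected BECs. The authors deposited whole-number read counts per Ensembl gene and library, not normalized and not pooled. The sources differ on how they were made: the submitters' processing notes name TopHat2 2.0.11, featureCounts and mm9 (NCBIM37), and the paper names STAR, featureCounts and GRCm39. The highest identifier number in the table is 93789 and 47216 identifiers of GENCODE M39 lie above it, so the table was counted on an older annotation than M39. The annotation release and the use of strand are not given in the sources used here. Symbols, positions and exon lengths came from GENCODE M39 by identifier, which matched 31073 of 37991. Unmatched identifiers, with between 3.33% and 4.78% of the counts, stayed in the test. Of 91 companion genes, Mrgpra2a and Mrgpra2b had no row, and neither had Vpreb1 among the B cell markers.

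Males were compared with females by edgeR 4.0.16 in R 4.3.3 (TMM, default filter by sex, robust quasi-likelihood fit, two-sided, Benjamini-Hochberg over 19480 genes). Standard errors (SE) were derived from each log2 value and its F statistic. The receptors, lists and tests were chosen with earlier results of these data known. The named genes were the receptors, the ligands, the 6 transcripts of the neutrophil scale, in each other companion list any called gene and the 3 largest changes at a mean of at least 5 CPM, and the 5 genes most like Cd101 and Cxcr4. Tlr4, Slc11a1, Olfm4 and Cybb were named after their values were seen. Alternatives were DESeq2 1.42.0's size factors and Wald test, total counts alone, other filters, abundant genes left out, the replicate number as a block, other neutrophil scales and each library left out. Genes without an adjusted p in DESeq2 stayed without one. On simulated counts the fit recovered most changed genes, with a share of false calls above the threshold of 0.05. No 2 libraries agreed within sampling noise (chi-square per degree of freedom at least 31.5).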

Additional observations from a re-analysis of the deposited data

How the results depend on the processing

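The log2 fold changes of the 9 receptors stayed above 0 in all 13 alternatives and moved by less than the spread between replicates. The number of calls depended on the test. The genes called, 8 in the main test, were 14 with total counts alone, 98 with no filter on low counts, 354 with DESeq2's Wald test, and between 5 and 96 with 1 library left out (96 without male replicate 3). The receptors called, 1 in the main test, were 5 with no filter and 6 with DESeq2's Wald test, and between 0 and 5 with 1 library left out. With total counts alone the 1 call was Cxcr2, not Cd101 (edgeR adjusted p = 0.0568). The companion genes called, 0 in the main test, were 3 with total counts alone, 16 with no filter, 28 with DESeq2, all higher in males, and between 0 and 12 with 1 library left out. With the replicate block, 428 genes, 6 receptors and 27 companion genes were called. Of all genes, 1.27% were called higher in males with DESeq2, 1.13% with the replicate block and 0.331% without male replicate 3. For total counts alone and for no filter, only the number of genes called is given, without a share. The labels do not say what libraries of the same number share. Their deviations from the sex means correlated with r of 0.194, 0.0402 and 0.298 across genes, and 5 of the 6 libraries correlated best with their own number. The causes of these differences in calls were not tested.

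Relative to the neutrophil scale, log2 ratios without S100a8 and S100a9 were 0.32 for Cd101, 0.29 for Cxcr2, -0.31 for Cxcr4, 0.43 for Csf3r, 0.051 for Itgb2l, -0.17 for Cd177, 0.26 for Ly6g, -0.20 for Fpr1 and 0.16 for Fpr2. With the granule lists summed as the scale they were 0.36 for Cd101, 0.33 for Cxcr2, -0.26 for Cxcr4, 0.48 for Csf3r, 0.10 for Itgb2l, -0.12 for Cd177, 0.31 for Ly6g, -0.16 for Fpr1 and 0.20 for Fpr2. The log2 fold change of Cxcl5, at under 1 CPM, lay between -2.28 and 0.36 with 1 library left out. Cxcl1, Cxcl3 and Csf3, with 7 counts or fewer in each library, had too few to compare the sexes.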
